A study of Mus musculus with 5 samples.

Results

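Transcript levels of 34 genes of mitosis and of the G2 to M transition are described here in mouse blood stem and progenitor cells and in granulocytes. The genes were taken by symbol from a list. Each of the 34 was found as 1 feature among 38166 features of the progenitor tables and as 1 among 34315 features of the granulocyte tables. The study asked what long non-coding RNAs of blood stem cells do, and sequenced polyA-selected transcripts of C57BL/6 mice. The progenitors were KSL cells, a bone marrow fraction that carries c-Kit and Sca-1 and lacks lineage markers. Sca-1+ cells were taken from mice injected with 5-FU (5-fluorouracil, a drug that kills dividing blood cells) and given a retrovirus that carries green fluorescent protein (GFP). They were kept for 2 days in medium that held, among other additions, 10 ng/ml of SCF (stem cell factor), and c-Kit+Sca-1+Lin-GFP+ cells were sorted. The LncHSC-1 virus and the LncHSC-2 virus were each directed against 1 long non-coding RNA, and the other virus was the knockdown control. Each virus gave 1 library. The control cells therefore carry a virus too, and all 3 libraries share the drug, the infection and the culture. Age and number of these mice are not given in the labels. Granulocytes were Gr1+ bone marrow cells of 12-month-old mice that were neither infected nor cultured as far as the labels say. Their 2 libraries are technical replicates of 1 biological replicate, so granulocyte values count as n = 1.

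A cell that has copied its DNA enters mitosis when the kinase Cdk1, bound to a cyclin A or cyclin B, becomes active. Plk1 and the Aurora kinases then build the spindle, kinetochores tie chromosomes to its microtubules, and the spindle checkpoint holds the cell until every chromosome is attached. The anaphase promoting complex, with its activator Cdc20, ends the wait by marking cyclin B and securin for destruction, and a contractile ring divides the cell. The genes of these proteins are transcribed together late in the cell cycle. The MuvB complex, with B-Myb and FoxM1 in dividing cells and as the DREAM repressor in resting ones, binds a promoter element named the cell cycle genes homology region (CHR), whose common form reads TTTGAA. In adult marrow most long-term stem cells rest, committed progenitors divide, and the neutrophil line stops dividing after the myelocyte stage.

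The element is shown to let the shared letters be read beside the values that follow. The genes shown act in entry, as mitotic kinases, with the anaphase promoting complex, at kinetochores and in division of the cell body. Genes of the spindle checkpoint, among others, are not shown. The windows searched ran from 250 bases before to 50 bases after the transcription start of RefSeq in build GRCm38.p6, and 30 of the 34 genes had one. TTTGAA, read on either strand, began within 50 bases of the start in 20 of these 30 windows, which is 66.7%, against 4.94% of all 32851 windows of the same length. It stood anywhere in the window in 23 of 30, against 17.9% of all windows. CCAAT, the element bound by NF-Y, was present on either strand in 23 of 30, against 37.4% of all windows. Both together, TTTGAA near the start and CCAAT, occurred in 18 of 30, which is 60.0%, against 2.08% of all windows. Matches of TTTGAA and CCAAT can share at most 1 letter. Matches are letters in a window and not measured binding. Of the 20 near the start, 15 lay on the gene's own strand. Stretches of 30 bases around 10 of these 15 follow, 5' to 3' on the gene's strand, with TTTGAA in capitals and coordinates in GRCm38.p6.
Cdk1, chr10:69352914-69352943, minus strand: gctttaccgcggcgagTTTGAAactgctgg
Ccnb2, chr9:70421537-70421566, minus strand: cgtcagcggcgcggtaTTTGAAtcgcggac
Plk1, chr7:122159449-122159478, plus strand: cgttcccagcgccgcgTTTGAAttcgggga
Aurka, chr2:172370525-172370554, minus strand: ttttaaaaggagaaccTTTGAAttgtaacg
Cdc20, chr4:118437348-118437377, minus strand: gttaagacagttgggtTTTGAAggagccaa
Cenpa, chr5:30666886-30666915, plus strand: gaggggcgggtgatttTTTGAActgctggc
Kif23, chr9:61946784-61946813, minus strand: gccgctgattggcctgTTTGAAatgcgccg
Prc1, chr7:80294430-80294459, plus strand: accgcctctggctcggTTTGAAttccgcgg
Anln, chr9:22389165-22389194, minus strand: gcgctgaaattcaaatTTTGAAcggccgtg
Ect2, chr3:27153829-27153858, minus strand: gagagagcgactggattttTTTGAAtcgga
The capitals begin 15 bases before the start of Cdk1, 4 bases after that of Ccnb2, 2 bases after that of Kif23 and 39 bases after that of Ect2.

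The 3 KSL libraries held an estimated 24.1 M reads for LncHSC-1, 19.9 M for LncHSC-2 and 21.0 M for control. Each of the 34 genes rested on at least 1330, 1119 and 1279 estimated reads in these libraries, so counting error was small beside the differences between genes. The sorted identities were visible in defining markers. Summed over 6 KSL markers, levels were 10.2 FPKM in granulocytes against 1648, 1473 and 1464 FPKM in the LncHSC-1, LncHSC-2 and control libraries. Summed over 11 granulocyte markers, they were 158812 FPKM in granulocytes against 121, 116 and 129 FPKM. FPKM counts fragments per kilobase of transcript, scaled by the authors to sequencing depth, and so is a level per length. With 1 library per virus no test between viruses was possible. Each difference below is one between 2 libraries, and no p-value is given. The labels do not say which features are the targeted RNAs, so the knockdown itself was not checked.

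All 34 genes were well expressed in every KSL library. The lowest, median and highest levels were 10.9, 42.9 and 136 FPKM in the LncHSC-1 library. They were 12.3, 45.0 and 141 FPKM in the LncHSC-2 library and 12.6, 43.9 and 153 FPKM in the control library. A floor of 5 FPKM, on the mean of the 3 libraries, kept 9153 features and all 34 genes. The median member lay above 94.0%, 94.2% and 94.0% of the 34309 features named in both kinds of table. Top2a, the topoisomerase that untangles sister chromatids, was the highest of the 34 in each library. Cenpf, a large kinetochore protein, was the lowest in each.

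**Figure D1:**
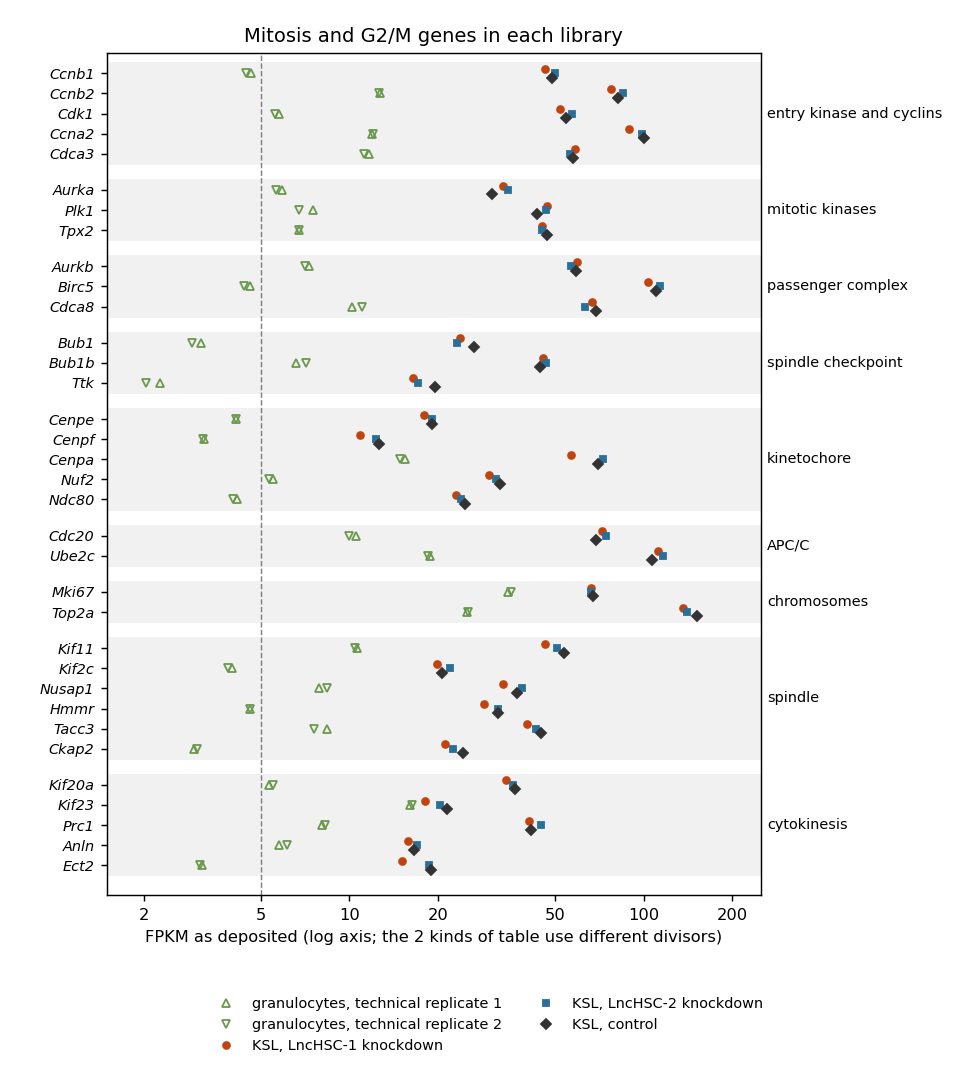
FPKM on a log axis of each of the 34 genes, grouped by role, in the 2 granulocyte technical replicates and in the LncHSC-1, LncHSC-2 and control KSL libraries. The 3 KSL points of a gene lie close together between 10.9 and 153 FPKM, while the granulocyte points lie lower for every gene, between 2.03 and 35.4 FPKM.

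No gene of the 34 differed by 2-fold between any pair of KSL libraries, and the levels of the program as a whole were nearly equal. Differences are given as log2 of the ratio of FPKM + 1, so that -0.26 or 0.26 marks 1.2-fold. In the LncHSC-1 library 27 of 34 genes lay below control, against 56.1% of the 9153 features. Their median was -0.09, with -0.02 over all features. By 1.2-fold or more, 2 genes were lower (3.64% of features) and 0 were higher (5.13% of features). In the LncHSC-2 library 18 of 34 lay below control, against 47.9% of features, with a median of -0.02 beside 0.0047 over all features. None of the 34 passed 1.2-fold there, where 2.37% of features were lower and 3.4% were higher by that much. Both ratios use the same control library, so a high or low control value moves both. The LncHSC-1 library set directly against the LncHSC-2 library gave a median of -0.09 beside -0.03 over all features. There 28 of 34 genes were lower in the LncHSC-1 library, against 59.5% of features, and 2 were lower by 1.2-fold or more, against 3.8%, and 0 were higher, against 4.6%. The order of the libraries depends on the scale. The deposited count columns place the typical feature of the LncHSC-2 library at -0.14 against control and that of LncHSC-1 at 0.12 against LncHSC-2. On that scale 33 of 34 genes lay below control in LncHSC-2 and 8 of 34 were lower in LncHSC-1 than in LncHSC-2. The share of all features on that scale is not given, so these counts are not read as a result about the 34 genes. Relative to the typical feature, the count columns gave 26, 19 and 27 of 34 below in LncHSC-1 against control, LncHSC-2 against control and LncHSC-1 against LncHSC-2. By 2-fold, 0.426% of features were lower and 0.634% higher in LncHSC-1 than in control. In the LncHSC-2 library against control these were 0.35% and 0.601%, and in LncHSC-1 against LncHSC-2 0.612% and 0.535%.

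Pooling the reads of the 34 genes narrowed the counting error. Their log2 ratio was -0.10 in the LncHSC-1 library against control, with a 95% exact binomial interval of -0.11 to -0.09. It was -0.02 in the LncHSC-2 library against control (-0.03 to -0.01). It was -0.08 in LncHSC-1 against LncHSC-2 (-0.09 to -0.06). These intervals, like those of single genes below, cover counting error in 2 libraries and not the spread between cultures or animals, which was not measured. In bulk samples fewer cells of a type and less RNA per cell cannot be told apart. The ratios of the 34 genes had an SD of 0.11 in LncHSC-1 against control. There 5992 features in the same range of levels had an SD of 0.34. In LncHSC-2 against control the SDs were 0.09 and 0.36. A few far features weigh heavily in an SD. Of all 9153 features only 3.64% were lower and 5.13% higher by 1.2-fold or more in LncHSC-1 against control. The SDs therefore do not compare the 34 genes with the spread of typical features.

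Transcript length and markers of other cell types are given here beside the LncHSC-1 difference, and their part in it was not tested. Across the 34 genes, which share the 2 libraries, Spearman's correlation of the ratio with length was -0.33 in LncHSC-1 against control and -0.32 in LncHSC-2 against control. Over all 9153 features it was -0.15 and -0.25. In LncHSC-1 against LncHSC-2 it was -0.14 over the 34 genes and 0.05 over all features. Summed over 8 B lineage markers, levels were 74.1, 44.5 and 42.5 FPKM in the LncHSC-1, LncHSC-2 and control libraries. Of these 8, 4, 2 and 2 reached 5 FPKM, and Igll1 was listed at 0 in control. Summed over 6 monocyte markers, levels were 133, 94.6 and 95.4 FPKM. Summed over 4 megakaryocyte markers they were 643, 619 and 499.8 FPKM. Summed over 4 eosinophil and basophil markers they were 6.45, 12.9 and 12.98 FPKM, with Epx listed at 0 in the LncHSC-1 library. The B lineage and monocyte sums were thus highest and the eosinophil and basophil sum lowest in the LncHSC-1 library. The megakaryocyte sums were higher in both knockdown libraries than in control. In the same order of libraries, sums were 328, 304 and 325 FPKM for 8 erythroid markers and 235, 243 and 235 FPKM for 5 promyelocyte markers. For 6 T and NK markers they were 6.75, 4.90 and 5.29 FPKM. Single markers weighed heavily in some sums, such as Ms4a6c (monocyte) at 91.6, 65.0 and 64.9 FPKM and Prg2 (eosinophil) at 0.450, 4.15 and 5.37 FPKM. Some markers did not follow their sum. F13a1 (monocyte) stood at 1.54, 1.66 and 1.39 FPKM and Vpreb1 (B lineage) at 0.335, 0.691 and 0.521 FPKM.

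**Figure D2:**
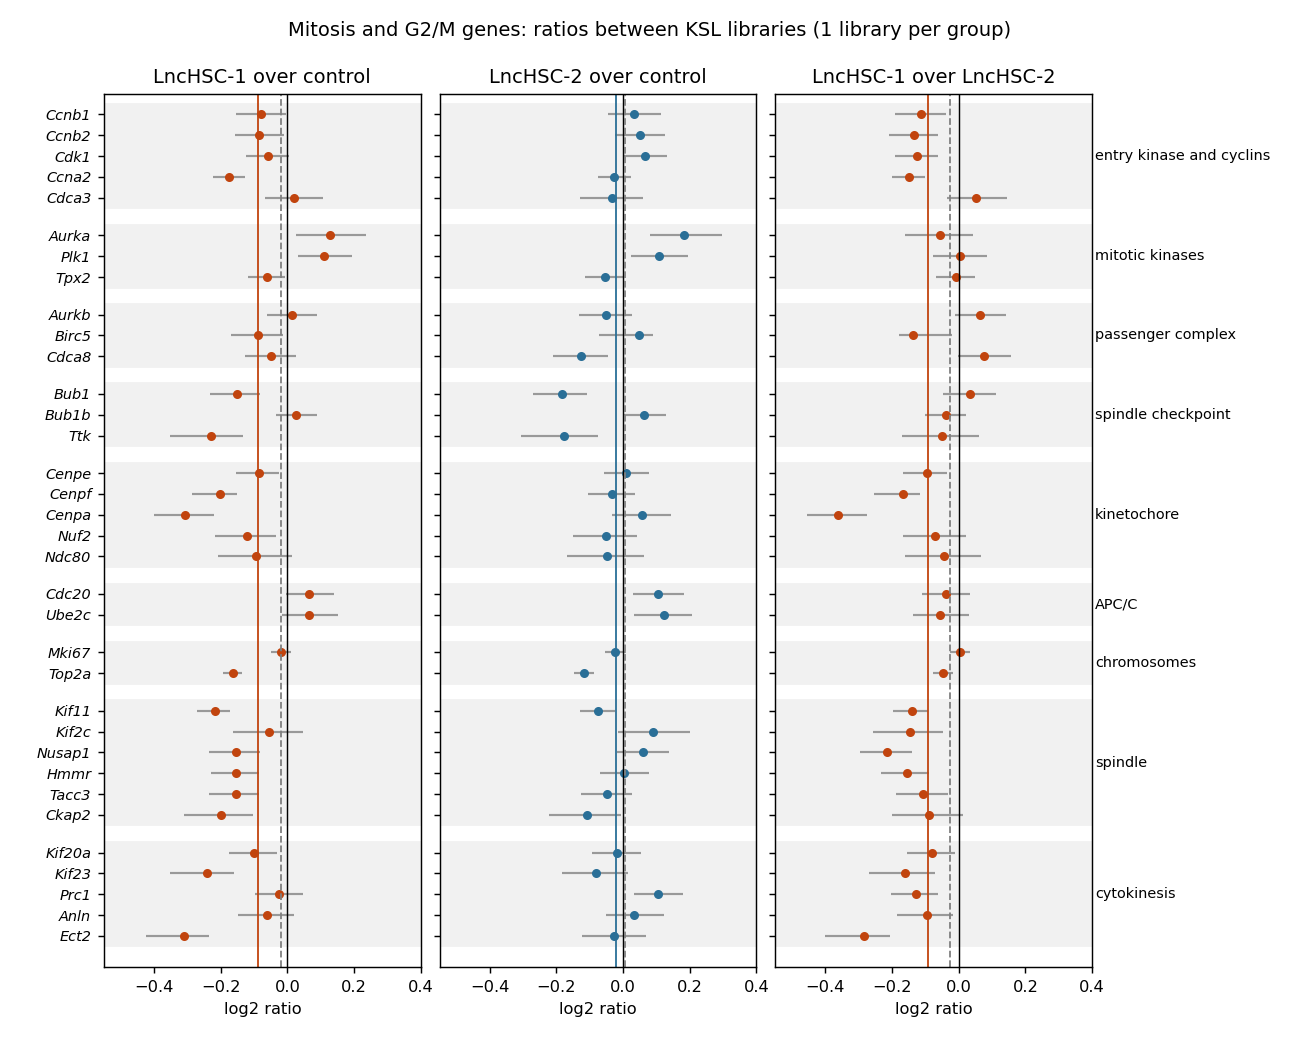
log2 ratios of FPKM + 1 of the 34 genes in LncHSC-1 over control, LncHSC-2 over control and LncHSC-1 over LncHSC-2 (dots). Grey bars are 95% exact binomial intervals computed from estimated reads with no pseudocount, the coloured line is the median of the 34 genes and the dashed grey line that of all 9153 features. Most dots of both LncHSC-1 panels lie left of 0, down to -0.36, while those of LncHSC-2 over control spread from -0.18 to 0.18.

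The kinase that starts mitosis and its cyclins differed little. Orders of libraries in this and the following accounts by role are by FPKM. Cdk1 stood at 52.1 FPKM in the LncHSC-1 library, 56.9 in the LncHSC-2 library and 54.3 in the control library. Ccnb1, which encodes cyclin B1, stood at 46.2, 49.9 and 48.8 FPKM in the LncHSC-1, LncHSC-2 and control libraries. Ccnb2, for cyclin B2, stood at 77.4, 85.1 and 82.1 FPKM in the same order. All 3 were lowest in the LncHSC-1 library and highest in the LncHSC-2 library. Ccna2, for cyclin A2, was also lowest in the LncHSC-1 library, at 89.2, 98.9 and 101 FPKM. Its log2 ratio was -0.17 (interval -0.22 to -0.13) in LncHSC-1 against control and -0.03 (interval -0.08 to 0.02) in LncHSC-2 against control. Cdca3, which helps to remove the Cdk1 inhibitor Wee1, differed by less, at 58.3, 56.2 and 57.5 FPKM. Its ratio of 0.05 (interval -0.04 to 0.14) in LncHSC-1 against LncHSC-2 was among the 4 highest of the 34 for that pair.

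Plk1 and Aurka, the kinases that drive centrosome maturation and bipolar spindle assembly, had the highest ratios of the 34 in the LncHSC-1 library. Aurka (chr2:172181696-172196006 of mm9, minus strand) stood at 33.3 FPKM in the LncHSC-1 library, 34.7 in the LncHSC-2 library and 30.4 in the control library. Its log2 ratio to control was 0.13 (interval 0.03 to 0.23) for LncHSC-1 and 0.18 (interval 0.08 to 0.30) for LncHSC-2. Plk1 stood at 46.8, 46.7 and 43.3 FPKM in the LncHSC-1, LncHSC-2 and control libraries, with ratios to control of 0.11 (interval 0.03 to 0.19) and 0.11 (interval 0.02 to 0.19). Control was the lowest of the 3 libraries by FPKM for both kinases, and LncHSC-1 against LncHSC-2 gave -0.06 for Aurka and 0.004 for Plk1. Tpx2, which activates Aurora A on the spindle, stood at 45.0, 45.3 and 47.1 FPKM and did not share this order.

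Control was also the lowest of the 3 libraries by FPKM for Cdc20 and Ube2c, which act in mitotic exit. Of 15 other genes of the anaphase promoting complex and its regulators, 13 lay below control in LncHSC-1 and 12 in LncHSC-2. Of all features 56.1% and 47.9% did so. The medians of the 15 genes were -0.05 and -0.03. Cdc20, the activator of the anaphase promoting complex, stood at 72.4 FPKM in the LncHSC-1 library, 74.4 in the LncHSC-2 library and 69.1 in the control library. Ube2c, the ubiquitin-conjugating enzyme of that complex, stood at 112, 117 and 107 FPKM in the LncHSC-1, LncHSC-2 and control libraries. Their ratios to control were 0.07 (interval -0.0045 to 0.14) and 0.07 (interval -0.02 to 0.15) for LncHSC-1, and 0.11 (interval 0.03 to 0.18) and 0.12 (interval 0.03 to 0.21) for LncHSC-2. The intervals of both genes included 0 for LncHSC-1 and lay above 0 for LncHSC-2. By the deposited count columns LncHSC-2 against control gave -0.04 for Cdc20, -0.03 for Ube2c, -0.04 for Plk1 and 0.04 for Aurka, so that control was the lowest library for none of Cdc20, Ube2c and Plk1 on that scale.

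The chromosomal passenger complex, with Aurora B as its kinase, corrects faulty attachments of chromosomes. Aurkb stood at 59.4 FPKM in the LncHSC-1 library, 56.8 in the LncHSC-2 library and 58.9 in the control library. Cdca8, for borealin, stood at 66.6, 63.1 and 69.0 FPKM, with ratios to control of -0.05 (interval -0.13 to 0.03) for LncHSC-1 and -0.13 (interval -0.21 to -0.05) for LncHSC-2. Both genes were lowest in the LncHSC-2 library, and their LncHSC-1 to LncHSC-2 ratios, 0.08 (interval -0.0028 to 0.16) for Cdca8 and 0.06 (interval -0.01 to 0.14) for Aurkb, were the 2 highest of the 34 for that pair. Birc5 (chr11:117710551-117717057 of mm9, plus strand), for survivin, was the second highest of the 34 genes in the control library and stood at 103, 114 and 110.0 FPKM in the LncHSC-1, LncHSC-2 and control libraries.

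The checkpoint kinases split. Ttk, the kinase that starts checkpoint signalling at kinetochores, stood at 16.5 FPKM in the LncHSC-1 library, 17.1 in the LncHSC-2 library and 19.5 in the control library. Bub1, a kinase and scaffold of the checkpoint, stood at 23.8, 23.3 and 26.5 FPKM. Control was the highest of the 3 libraries for both, with ratios of -0.23 (interval -0.35 to -0.13) and -0.15 (interval -0.23 to -0.08) for LncHSC-1 and -0.18 (interval -0.30 to -0.07) and -0.18 (interval -0.27 to -0.11) for LncHSC-2. These were the 2 lowest ratios of the 34 in LncHSC-2 against control, and both still differed by less than 1.2-fold. Bub1b, for BubR1, which holds Cdc20 back, stood at 45.4, 46.7 and 44.6 FPKM and was slightly above control in both. Set directly against LncHSC-2, the LncHSC-1 library gave 0.03 (interval -0.05 to 0.11) for Bub1, with 0 inside the interval.

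Kinetochore genes were lower by FPKM in the LncHSC-1 library than in both others, and Cenpa was the furthest. Cenpa (chr5:30969275-30977199 of mm9, plus strand), the histone H3 variant that marks centromeres, stood at 56.6 FPKM in the LncHSC-1 library, 73.0 in the LncHSC-2 library and 70.2 in the control library. Its log2 ratio in the LncHSC-1 library was -0.31 (interval -0.40 to -0.22) against control and -0.36 (interval -0.46 to -0.28) against LncHSC-2, while LncHSC-2 against control gave 0.06 (interval -0.03 to 0.14). Cenpe, the kinesin that carries chromosomes to the spindle equator, stood at 17.9, 19.1 and 19.0 FPKM. Ndc80, which with Nuf2 grips the microtubule end, stood at 23.1, 23.9 and 24.7 FPKM. Cenpf stood at 10.9, 12.3 and 12.6 FPKM, and its ratio of -0.17 (interval -0.25 to -0.11) in LncHSC-1 against LncHSC-2 was among the 4 lowest of that pair. All 5 kinetochore genes, with Nuf2, were lower in LncHSC-1 than in both others, with log2 ratios of -0.31 to -0.09 against control.

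Genes of cytokinesis, which divides the cell body, gave the other gene past 1.2-fold. Ect2 (chr3:26996144-27052800 of mm9, minus strand), an exchange factor that acts at the division plane, stood at 15.1 FPKM in the LncHSC-1 library, 18.6 in the LncHSC-2 library and 19.0 in the control library. Its ratio in the LncHSC-1 library was -0.31 (interval -0.43 to -0.23) against control and -0.28 (interval -0.40 to -0.21) against LncHSC-2, and LncHSC-2 against control gave -0.03 (interval -0.12 to 0.07). Kif23, the kinesin of the centralspindlin complex that recruits Ect2 to the midzone, stood at 18.0, 20.3 and 21.5 FPKM. Its ratio of -0.24 (interval -0.35 to -0.16) in LncHSC-1 against control ranked 3 from the bottom of the 34, just short of 1.2-fold. Prc1, which bundles midzone microtubules, stood at 40.8, 44.7 and 41.5 FPKM, and Anln, for the ring scaffold anillin, stood at 15.9, 17.0 and 16.6 FPKM. All 5 cytokinesis genes, with Kif20a, were lower in LncHSC-1 than in control, with log2 ratios of -0.31 to -0.02, and lower than in LncHSC-2.

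Spindle genes were also lower by FPKM in the LncHSC-1 library than in both others. Kif11, the motor that pushes spindle poles apart, stood at 46.1 FPKM in the LncHSC-1 library, 50.9 in the LncHSC-2 library and 53.7 in the control library, with -0.22 (interval -0.27 to -0.17) in LncHSC-1 against control. Nusap1, which bundles spindle microtubules, stood at 33.3, 38.7 and 37.1 FPKM, with -0.21 (interval -0.30 to -0.14) in LncHSC-1 against LncHSC-2. The 6 spindle genes, which include Kif2c, Hmmr, Tacc3 and Ckap2, were all lower in LncHSC-1 than in control, at -0.22 to -0.06, and all lower than in LncHSC-2. In LncHSC-2 against control they ranged from -0.11 to 0.09, with 3 of 6 below. Of the chromosome genes, Top2a stood at 136, 141 and 153 FPKM in the LncHSC-1, LncHSC-2 and control libraries, with -0.16 (interval -0.19 to -0.14) and -0.12 (interval -0.15 to -0.09) against control. Mki67 (chr7:142881471-142908062 of mm9, minus strand), the widely used proliferation marker whose protein coats mitotic chromosomes, stood at 66.4, 66.2 and 67.3 FPKM. Its ratios of -0.02 (interval -0.05 to 0.01) and -0.02 (interval -0.05 to 0.01) to control had 0 inside the interval, at 15743 to 19460 estimated reads per library.

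Promoter letters did not sort these ratios by much. The 20 genes with TTTGAA near the start had a median of -0.07 in LncHSC-1 against control, with 14 below, and the 10 genes whose window held none there had -0.11, with 10 below. In LncHSC-2 against control the medians were 0.02 and -0.01. Their median levels in control were 43.9 and 34.9 FPKM. This is a description of 30 genes in single libraries.

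Lists of neighbouring processes, which share no gene with the 34, gave like values. In LncHSC-1 against control the median was -0.13 for 17 condensin and cohesin genes, with 14 below, and -0.07 for 31 other kinetochore and checkpoint genes, with 21 below. It was -0.07 for the 24 other spindle and cytokinesis genes past the floor (of 26 listed) with 16 below, -0.05 for 15 genes of the anaphase promoting complex and its regulators with 13 below, and -0.07 for 26 of 28 regulators of mitotic entry and of late cell cycle transcription with 21 below. For 41 DNA replication genes it was -0.11, with 35 below. Of all 9153 features 56.1% lay below control in that pair. In LncHSC-2 against control the medians of these 6 lists lay between -0.05 and -0.0031, and in LncHSC-1 against LncHSC-2 between -0.10 and -0.04. The replication genes thus had medians close to those of the 34 in all 3 pairs, and each of the 6 medians in LncHSC-1 against control was below that of all features, -0.02.

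The genes of these cell cycle lists past 1.2-fold are named here, and their number is not read as a result about the lists. In LncHSC-1 against control 1 of 31 other kinetochore and checkpoint genes and 2 of 41 replication genes were lower by that much. There 1 of 41 replication genes was higher. Of all features 3.64% were lower and 5.13% higher. In LncHSC-1 against control, Cenpp, a centromere protein, was at -0.30. Among replication genes Ccne2, for cyclin E2, was at -0.29 and Hells, a chromatin remodeller, at -0.28. Rrm2, a subunit of ribonucleotide reductase that supplies DNA building blocks, stood apart at 0.84, with 91.5, 87.3 and 50.9 FPKM in the LncHSC-1, LncHSC-2 and control libraries. In LncHSC-2 against control, Ccne2 was at -0.84, Rrm2 at 0.77, the transcription factor gene E2f5 at -0.31, and Anapc13, a subunit of the anaphase promoting complex, at 0.42. Of all features 2.37% were lower and 3.4% higher by 1.2-fold or more in that pair. In LncHSC-1 against LncHSC-2, Ccne2 was at 0.55, where 3.8% of features were lower and 4.6% higher by 1.2-fold or more. In LncHSC-1 against control, 3 of 9 arrest and quiescence genes past the floor (of 12) were higher and 1 lower by 1.2-fold or more. Of all features 5.13% were higher and 3.64% lower by that much. Btg1 and Btg2, which slow proliferation, were at 0.39 and 0.30 there. Gadd45b, a stress gene, was at 0.30 there, and Ccng1, a target of p53, was at -0.28.

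**Figure D3:**
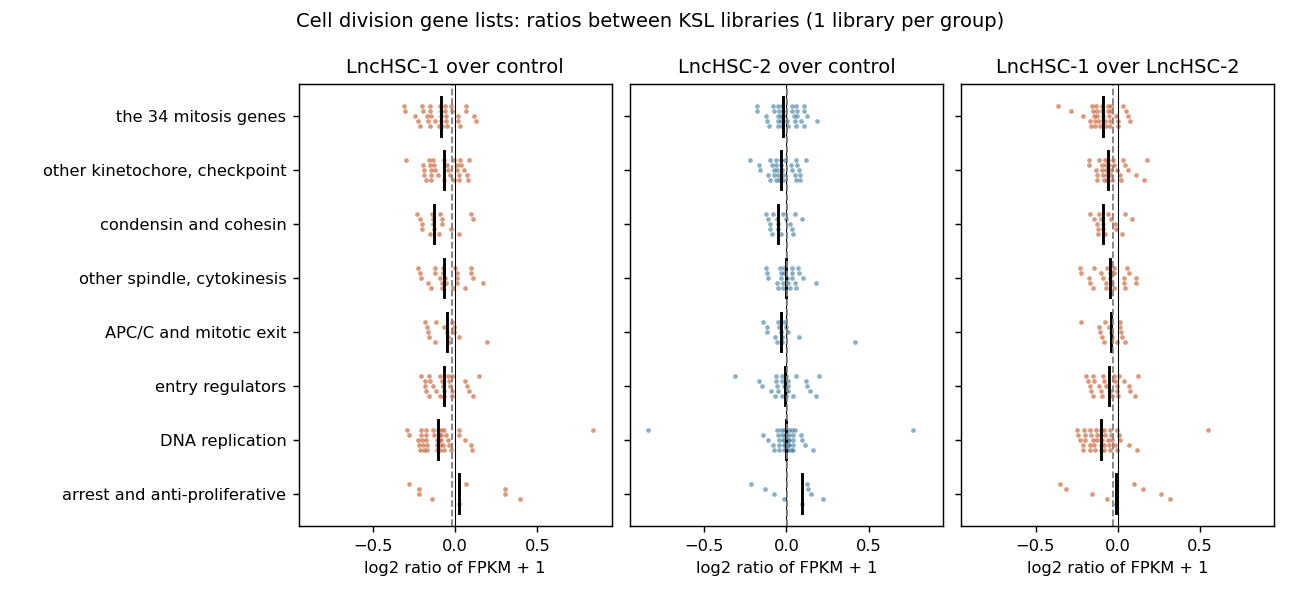
log2 ratios of FPKM + 1 of single genes past the floor (points) of the 34 and of the neighbouring lists in each pair of KSL libraries, with each list's median (black bars) and that of all 9153 features (dashed line). The mitosis median of -0.09 in LncHSC-1 over control lies among those of the neighbouring cell cycle lists, which run from -0.13 to -0.05.

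Granulocytes held transcripts of the whole mitotic program at lower levels. All 34 genes were detected, 23 of 34 at 5 FPKM or more, against 17.7% of the 34315 granulocyte features, and 11 lay under. The granulocyte median was 6.79 FPKM (range 2.15 to 35.0), against 43.9 FPKM in control KSL cells. The 34 genes took 0.0672% of the summed FPKM of the 34309 features named in both tables in granulocytes. They took 0.372%, 0.375% and 0.386% in the LncHSC-1, LncHSC-2 and control libraries. The median member lay above 84.7% of features in granulocytes and 94.0% in control. The technical replicates differed by a log2 ratio of -0.10 to 0.14 across the 34 genes, with an SD of 0.06. The granulocyte sum includes S100a8 and S100a9 at 56391 and 60707 FPKM, which lower the share of every other gene there. The 2 kinds of table were scaled separately, so levels set across them are not a measured fold. Proportions within a library do not depend on that scaling.

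Markers of several other cell types reached 5 FPKM in granulocytes, as did 17.7% of all granulocyte features. All 5 markers of promyelocytes, a stage that still divides (the primary granule genes Elane, Mpo, Prtn3 and Ctsg, and the membrane protein gene Ms4a3), reached 5 FPKM in granulocytes, and their sum was 195 FPKM there against 235, 243 and 235 FPKM in the LncHSC-1, LncHSC-2 and control libraries. Of 8 erythroid markers 5 reached 5 FPKM in granulocytes, with a sum of 214 FPKM there. All 6 monocyte markers found and 3 of 4 eosinophil and basophil markers did so too, with sums of 342 and 97.2 FPKM. None of 8 B lineage and none of 4 megakaryocyte markers did, with sums of 3.14 and 2.44 FPKM. Of 6 KSL markers only Kit reached 5 FPKM, at 5.64, and of 6 T and NK markers only Cd3d, at 6.56. No marker of these lists was listed at 0 in granulocytes. The part of any of these cells in the mitotic transcripts was not tested.

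The summed mitosis level stood above the summed replication level in granulocytes and below it in KSL cells. The summed level of the 34 genes was 1.53 and 1.55 times that of the 41 DNA replication genes in the granulocyte technical replicates. In the LncHSC-1, LncHSC-2 and control libraries it was 0.638, 0.623 and 0.630 times. Without Rrm2 the ratio was 1.66 in granulocytes and 0.643 in control. This order was not particular to the 34. Condensin and cohesin genes and entry regulators summed to 251 and 300 FPKM in granulocytes, against 194 FPKM for replication genes. In control they summed to 823 and 984 FPKM, against 2689 FPKM. Other kinetochore, other spindle and anaphase promoting complex lists summed to 163, 161 and 153 FPKM in granulocytes, and to 891, 1365 and 614 FPKM in control. Of the 41 replication genes 13 reached 5 FPKM in granulocytes, against 17.7% of all granulocyte features, with a median of 3.27 FPKM. All 41 passed the floor in KSL cells. The replicates of 1 biological sample carry no error between animals, so the difference has no test.

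Among the 34, granulocytes were highest for Mki67, at 34.6 and 35.4 FPKM in the technical replicates, against 67.3 FPKM in control. Top2a followed at 25.1 and 25.3 FPKM, against 153 FPKM in control. Ube2c stood at 18.8 and 18.5 FPKM, Kif23 at 16.1 and 16.4 FPKM and Cenpa at 15.5 and 14.9 FPKM. The 5 highest in control were Top2a at 153, Birc5 at 110.0, Ube2c at 107, Ccna2 at 101 and Ccnb2 at 82.1 FPKM. Top2a and Ube2c were thus in both groups of 5. The lowest in granulocytes were Ttk at 2.27 and 2.03 FPKM, Ckap2 at 2.95 and 3.03 FPKM and Bub1 at 3.12 and 2.92 FPKM, and the lowest in control were Cenpf at 12.6, Anln at 16.6 and Ect2 at 19.0 FPKM.

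The other named genes lay between these. Entry genes stood at 5.77 and 5.60 FPKM for Cdk1, 11.9 and 12.1 FPKM for Ccna2, 4.61 and 4.43 FPKM for Ccnb1 and 12.7 and 12.6 FPKM for Ccnb2 in the granulocyte replicates. Ccnb1 was thus under 5 FPKM while Ccnb2 was well above it. Kinase genes stood at 7.53 and 6.74 FPKM for Plk1, 5.90 and 5.62 FPKM for Aurka, 7.30 and 7.04 FPKM for Aurkb and 6.59 and 7.12 FPKM for Bub1b. Cdc20 stood at 10.5 and 9.98 FPKM and Kif11 at 10.6 and 10.4 FPKM. The order of Plk1, Aurkb and Bub1b was turned round between the technical replicates. Kinetochore genes were low apart from Cenpa, with 4.11 and 4.10 FPKM for Cenpe and 4.15 and 4.03 FPKM for Ndc80. Cytokinesis genes stood at 8.07 and 8.24 FPKM for Prc1, 5.77 and 6.11 FPKM for Anln and 3.16 and 3.09 FPKM for Ect2.

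The order of the 34 levels in granulocytes followed that in control KSL cells in part. Across the 34 genes, which share each library, Spearman's correlation was 0.701, and Pearson's r of log2 of FPKM + 1 was 0.691. These are correlations across genes, which are not independent replicates. As a share of the summed level of the 34, Kif23 made up 5.44% in granulocytes and 1.27% in control. Mki67 made up 11.7% in granulocytes and 3.97% in control, and Anln 1.99% and 0.978%. These 3 had the largest excess of share in granulocytes on a log scale. Birc5 made up 1.502% in granulocytes and 6.49% in control, Ccnb1 1.52% and 2.88%, and Cdk1 1.91% and 3.20%. These 3 had the largest deficit. For Mki67, Kif23, Anln and Birc5, 4 of 34 genes, the granulocyte to control ratio lay 2-fold or more from the median ratio of the 34. Of the 5044 features at 5 FPKM or more in both, 51.7% lay 2-fold or more from the median ratio of those features. The 34 genes were not held to that floor in granulocytes. The 2 shares thus differ in reference and in filter.

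The Birc5 value depends on gene models. The length behind the granulocyte FPKM of Birc5 was 3.41 kb, against 0.957 kb behind its KSL FPKM, while for the other 33 genes the ratio of these lengths lay between 0.948 and 1.12. With the KSL length in both, Birc5 made up 5.15% in granulocytes and 6.49% in control, and lay within 2-fold of the median ratio. The rank correlation was then 0.807 and the count of genes 2-fold away was 3. The Birc5 feature also overlaps an unnamed feature of the other strand, HAG_007539, by 781 bases. That feature stood at 8.61 FPKM in granulocytes and at 1.93, 0.648 and 0.260 FPKM in the LncHSC-1, LncHSC-2 and control libraries. No source used here says whether counting used strand, so reads of the pair cannot be told apart. Ccna2, Kif20a, Cdc20 and Nusap1 also overlap a gene of the other strand, by 16 to 1595 bases.

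Summed by role, granulocytes held larger shares of chromosome and cytokinesis genes and smaller shares of entry and passenger genes, with members on both sides in some roles. Mki67 and Top2a together made up 20.2% of the summed level of the 34 in granulocytes and 12.97% in control, although Top2a alone had 8.46% in granulocytes and 9.001% in control. The 5 cytokinesis genes made up 13.03% in granulocytes and 7.97% in control, and the 5 kinetochore genes 10.7% and 9.39%. Of the cytokinesis genes Kif20a, at 1.81% in granulocytes and 2.15% in control, and Ect2, at 1.05% and 1.12%, had smaller shares in granulocytes. The 5 entry genes made up 15.5% in granulocytes and 20.3% in control, and the 3 passenger genes 7.47% and 14.02%. Cdca3, an entry gene, had a larger share in granulocytes, 3.83%, than in control, 3.39%. With KSL lengths the granulocyte share of passenger genes was 11.0%. Role shares also differed across the 3 KSL libraries. The kinetochore share was 8.64%, 9.41% and 9.39% in the LncHSC-1, LncHSC-2 and control libraries, and that of Cdc20 with Ube2c was 11.5%, 11.3% and 10.4%.

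**Figure D4:**
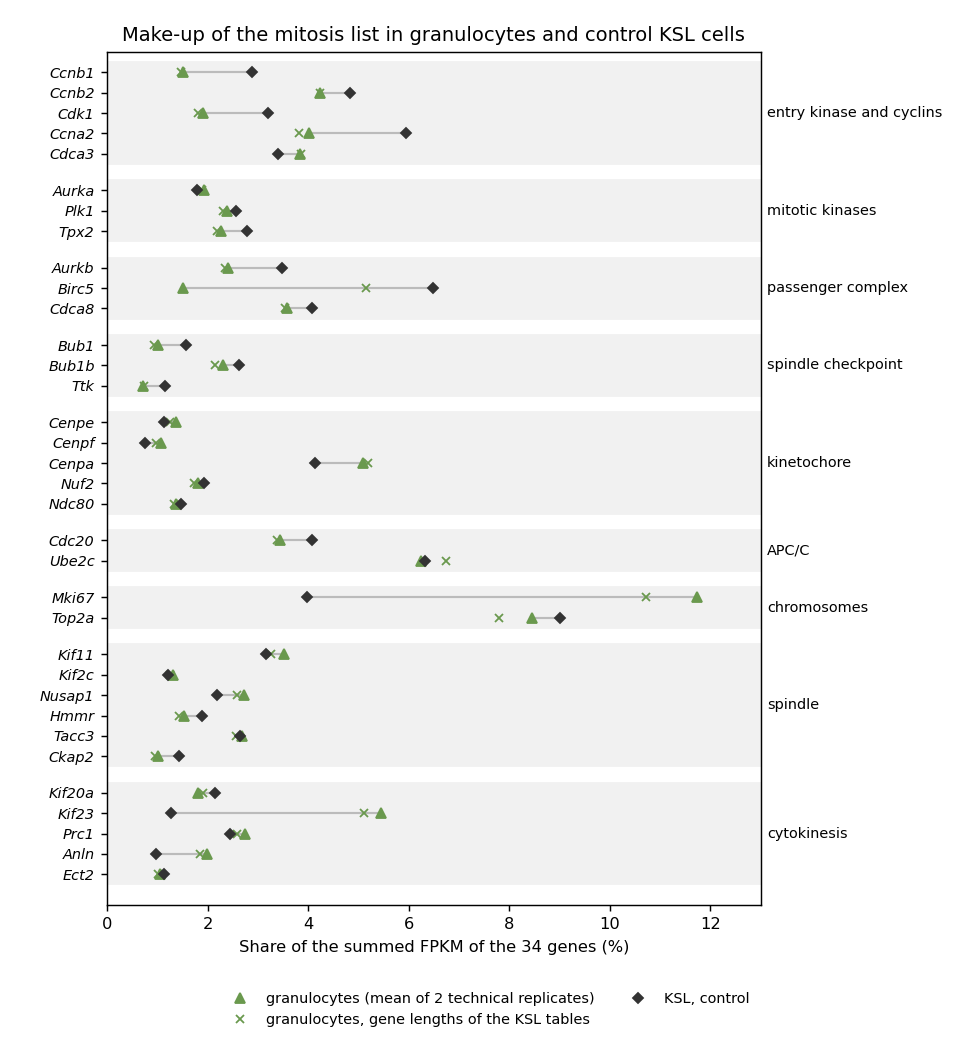
Share of each gene in the summed FPKM of the 34 genes, in percent on a linear axis, in granulocytes (triangles, mean of 2 technical replicates), in granulocytes with the gene lengths of the KSL tables (crosses) and in the control KSL library (diamonds). The widest gaps are those of Mki67 and Kif23, higher in granulocytes, and of Birc5, at 1.502% in granulocytes and 6.49% in control, where the cross lies at 5.15%.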

How the data were processed

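RNA sequencing libraries of 2 granulocyte technical replicates and of 3 KSL groups with 1 library each were analysed, grouped by the labels. FPKM values are those of the authors, per the file headers. Genome build mm9 and DESeq are named, without a role, in the submitters' processing notes. Aligner, counter, strand use and annotation release: not given in the sources used here. The deposited KSL count columns were treated as a signal, since 91.8% to 92.1% of the values below 20 reads fell on multiples of a fixed step, to within 0.1 read. Dividing by that step (0.924, 1.03 and 1.08 for LncHSC-1, LncHSC-2 and control) gave the estimated reads. They served for intervals and pooled ratios only, and no count model was run. The deposited granulocyte count columns were treated as a score, because they are whole numbers scaled by the authors to totals of 40.4 M in both files and replicate 1 never takes the value 8. Granulocyte FPKM, as deposited, come from this score divided by length in kilobases and by 50 (in M). The granulocyte depth in reads is therefore unknown.

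Log2 ratios of FPKM + 1 were computed for features with a mean of at least 5 FPKM over the KSL libraries, which understates the change of low genes. Rules of size were 1.2-fold and 2-fold. Binomial intervals (95%, Clopper-Pearson) scale depth by the libraries' reads per FPKM and cover counting error only. Technical replicates were averaged. Lengths were read as score or reads per FPKM. Python 3.11.15, pandas 2.3.3, scipy 1.17.1 and matplotlib 3.10.9 were used. Promoters are those of RefSeq in GRCm38.p6. The genes and the lists were chosen with earlier results of these data known, and what they show is not independent of those results. All 34 genes are accounted for by counts and ranges. Single values are given for genes chosen to cover the roles, for the 4 highest and 4 lowest ratios of each pair, for the 5 highest and 3 lowest levels in granulocytes and control, and for the 3 largest share differences in each direction. Genes outside the 34 are the furthest of each list. Alternatives were other measures, pseudocounts, floors, folds, lengths and single granulocyte replicates. Of the listed genes of other processes, Ska2, Ska3 and Mis18a, and the marker Adgre1, had no match by symbol and were not analysed here. A culture additive is not reported here. The B cell samples of the series were not analysed here.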

Additional observations from a re-analysis of the deposited data

How the results depend on the processing

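No gene of the 34 passed 2-fold in any pair of KSL libraries under any measure or pseudocount tried. The deposited count columns, whose typical feature is shifted as given above, moved the median of LncHSC-2 against control to -0.17. On them 33 genes lay below and 4 were lower by 1.2-fold, and the shares of all features on that scale are not given. They turned the median of LncHSC-1 against LncHSC-2 to 0.050, with 8 genes below and 0 lower by 1.2-fold. The shift of all features in these columns accounts for the turn, since centred on all features they gave -0.068 for that pair and -0.070 for LncHSC-1 against control. Centred FPKM gave -0.068 for LncHSC-1 against control and -0.065 for LncHSC-1 against LncHSC-2, with 1 gene lower by 1.2-fold in that pair. A pseudocount of 5 gave -0.076 for LncHSC-1 against LncHSC-2 and left 1 gene lower by 1.2-fold in LncHSC-1 against control and 1 against LncHSC-2. The mean in place of the median gave -0.0044 for LncHSC-2 against control. At 1.1-fold, 13 of 34 genes were lower in LncHSC-1 against control (16.6% of all features), 2 in LncHSC-2 against control (8.69%) and 9 in LncHSC-1 against LncHSC-2 (15.5%), and at 1.5-fold 0 genes were in both comparisons of LncHSC-1. Summed FPKM in place of summed reads, added after seeing the data, gave -0.082 for LncHSC-1 against control and 0.0022 for LncHSC-2 against control, the opposite sign to -0.02. The cause was not tested. In granulocytes 11 of 34 genes reached 10 FPKM, and the share of all features at that level is not given. Without replicate 1 or replicate 2 the count at 5 FPKM was 23 and 23, and the rank correlation with control was 0.699 and 0.719. With the score divided by the KSL length that correlation was 0.807, and in an alternative added after seeing the data 24 genes reached 5 FPKM. Of the 102 ratios of single genes, 68 moved by more than 0.5 times the width of their counting interval with the deposited count columns and 0 did with the 4 other settings. No paired analysis was possible because each KSL group has 1 library and the granulocyte numbers are technical replicates of 1 sample. With 1 library per virus, differences of the size seen cannot be told apart from those between cultures.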

Other observations

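Neighbouring cell cycle lists were unevenly represented in granulocytes, and the genes given here were chosen after their values were seen. Of 17 condensin and cohesin genes 13 reached 5 FPKM, among them Stag2, a cohesin subunit, at 50.7 FPKM and Rad21, the cohesin ring-closing subunit, at 47.5 FPKM (means of the technical replicates). Of 15 genes of the anaphase promoting complex and its regulators 11 did, with Anapc2 at 26.0 FPKM. Of 31 other kinetochore and checkpoint genes 8 did, and of 26 other spindle and cytokinesis genes 9 did. Of all 34315 granulocyte features 17.7% reached 5 FPKM. Of 28 regulators of entry and late cell cycle transcription 13 reached it, with Tfdp1, a partner of the E2F factors, at 71.5 FPKM and E2f2 at 53.0 FPKM.

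Of 12 arrest and quiescence genes 9 reached 5 FPKM in granulocytes, against 17.7% of all granulocyte features, with a median of 28.6 FPKM. Btg1 was at 115, Btg2 at 107, Gadd45a at 100.2 and Trp53inp1 at 76.3 FPKM there. In the LncHSC-1, LncHSC-2 and control libraries Btg1 was at 6.96, 5.65 and 5.07 FPKM and Btg2 at 7.64, 5.94 and 6.02 FPKM. Cdkn1a, a cyclin-dependent kinase inhibitor gene, was at 0.925 FPKM in granulocytes and at 49.7, 63.6 and 58.1 FPKM in the LncHSC-1, LncHSC-2 and control libraries. Ccng1 was at 17.8 FPKM in granulocytes and at 73.0, 76.3 and 88.8 FPKM in those libraries, and Cdkn1c and Cdkn2d were at 0.139 and 0.158 FPKM in granulocytes. Cdkn1b, another cyclin-dependent kinase inhibitor gene, was at 37.4 FPKM in granulocytes and at 14.5, 14.6 and 16.1 FPKM in those libraries. Ccng2 was at 41.1 FPKM in granulocytes. Btg1, Btg2, Gadd45a, Trp53inp1, Ccng2 and Cdkn1b were each higher in granulocytes than the highest of the 34 mitosis genes, Mki67 at 35.0 FPKM.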
